A study of Mus musculus with 4 samples.

Results

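The genes described here are the nuclear-encoded subunits and assembly factors of respiratory complexes II to V, taken as the 62 of 22396 named genes in a deposited mouse ribosome profiling table whose symbols follow the Sdh, Sdhaf, Uqcr, Cyc1, Cycs, Cox and Atp5 naming. They comprise 8 genes of complex II with its assembly factors, 10 of complex III with cytochrome c, 18 subunits and 9 assembly factors of complex IV, and 17 subunits of complex V. Symbols define the members, not measured values.

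Complex II, succinate dehydrogenase, oxidises succinate in the citric acid cycle and passes the electrons to ubiquinone. Complex III carries electrons from ubiquinol to cytochrome c, complex IV (cytochrome c oxidase) hands them to oxygen, and complex V, the ATP synthase, uses the resulting proton gradient to make ATP. Complex II is built from nuclear genes only, whereas complexes III, IV and V each also hold subunits encoded by mitochondrial DNA. The testis is known for germ cell forms of several of these proteins, including testis cytochrome c (Cyct) and the complex IV subunits Cox6b2, Cox7b2 and Cox8c.

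The study profiled ribosome-protected RNA fragments from about 1000 THY1-positive mouse testis cells per sample, with 2 samples of the Ddx20 knockout and 2 of littermate control mice. THY1 is a surface protein used to enrich spermatogonial stem and progenitor cells, and T cells carry it too. DDX20 (Gemin3) is a helicase of the SMN complex, which assembles the RNA-protein particles of the spliceosome. Age, the deleted allele and any Cre driver were not stated in the labels used. Nothing there says that samples of 1 genotype came from separate animals, so p-values may measure technical spread only.

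The deposited table gives, for each gene, a mean over the 4 libraries, a log2 fold change with its standard error, a p-value and an adjusted p, and it holds no column for a sample. Whole reads in each of the 4 libraries were recovered from the means, with 1 solution for 20512 of 20515 rows with reads. Genes with reads in only 1 library place each library on a side of the comparison. All 870 such genes of library C and 755 of library D had fold changes above 0 in the authors' deposited table, and all 46 of library A and 31 of library B had fold changes below 0. C and D held 282722 and 221439 reads over genes, and A and B held 941014 and 789570. No file ties a side to the knockout. Every "lower" and "higher" here therefore means C and D relative to A and B. Exchanging the sides would reverse every direction at once. RPM below means reads per 1000000 reads of a library. Ddx20 itself had 113 and 135 RPM in C and D (32 and 30 reads), against 305 and 309 RPM in A and B (287 and 244 reads). Its log2 fold change was -1.83 (SE 0.24, adjusted p = 4.07e-13) in the authors' deposited table. Between libraries A and B a chi-square test over 10424 genes found a difference smaller than sampling noise (0.982 per degree of freedom, p = 0.905). Counted as 1 sample in limma, they left all 36 lower calls among the members in place. For C against D the chi-square test found a difference beyond sampling noise over 12228 genes (1.08 per degree of freedom, p = 3.79e-10), but not over the 40 members with enough reads (0.670 per degree of freedom, p = 0.943). Intervals below cover counting error only.

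The sides also differed in marker genes of cell types. The summed level of 8 germ cell markers was 1329.9 and 1143 RPM in C and D, against 4219.9 and 4279.5 RPM in A and B, and 7 of the 8 were lower in the authors' deposited table. Peritubular myoid markers summed to 329 and 348 RPM in C and D, against 79.7 and 59.5 RPM in A and B. Endothelial markers summed to 262 and 271 RPM, against 126 and 115 RPM, and macrophage markers to 339.6 and 384 RPM, against 137 and 159.6 RPM. Of the 6 macrophage markers 2 were higher and 1 was lower, Lyz2 at a log2 fold change of -1.44 (adjusted p = 0.0205), in the authors' deposited table. T cell markers summed to 138 and 108 RPM in C and D, against 43.6 and 36.7 RPM in A and B. Sertoli markers summed to 255 and 280.0 RPM in C and D, against 208 and 191 RPM in A and B. Of the 8 Sertoli markers 1 was higher, Wt1 at 2.51 (adjusted p = 0.000306), and 1 was lower, Amh at -1.16 (adjusted p = 0.0172), in the authors' deposited table. Leydig markers summed to 120.3 and 158 RPM in C and D, against 49.9 and 44.3 RPM in A and B. Of the 5 tested Leydig markers 0 were higher in the authors' deposited table. Of 5 T cell markers 1 was higher there, of 5 endothelial markers 2 and of 5 peritubular myoid markers 3. In each of these lists 0 were lower. Of all tested genes 26.9% were higher. The 7 striated muscle markers, 4 of them higher in the authors' deposited table, summed to 279 and 370.3 RPM in C and D, against 27.6 and 22.8 RPM in A and B. Olfactory and vomeronasal receptor genes took 0.806% and 0.899% of reads in C and D, against 0.00457% and 0.00469% in A and B. They are not read here as markers of a cell type. Although smaller, library C covered 19374 genes and D 19157, while A covered 14405 and B 14048. Whether this wider spread of reads in C and D lowers the shares of other genes was not tested. The sort marker Thy1 had 1 and 3 reads in C and D, against 18 and 15 reads in the larger libraries A and B. Thy1 did not pass, at a log2 fold change of -1.05 (SE 0.94, adjusted p = 0.156) in the authors' deposited table. The part of all these genes in the results below was not tested. The cells were lysed in bulk, so fewer cells of a type and fewer footprints per cell cannot be told apart. Without RNA sequencing of the same cells, ribosome occupancy cannot be told apart from transcript level.

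Footprint counts on the nuclear genes of complexes II to V were lower in C and D as a group. Of the 62 genes, 54 were tested in the authors' deposited table. At an adjusted p of 0.05, 36 of them were lower, 0 were higher and 18 did not pass. Over all tested genes 18.8% were lower and 26.9% were higher. The median log2 fold change of the 54 in the authors' deposited table was -1.27, against 0.38 over all tested genes, and 50 of the 54 lay below 0. The 8 genes without an adjusted p are Cycs and Cox17, which are listed at 0, and Atp5g1, Atp5g2, Atp5l, Cox7c, Cox6a2 and Cox8b, which had few reads.

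**Figure D1:**
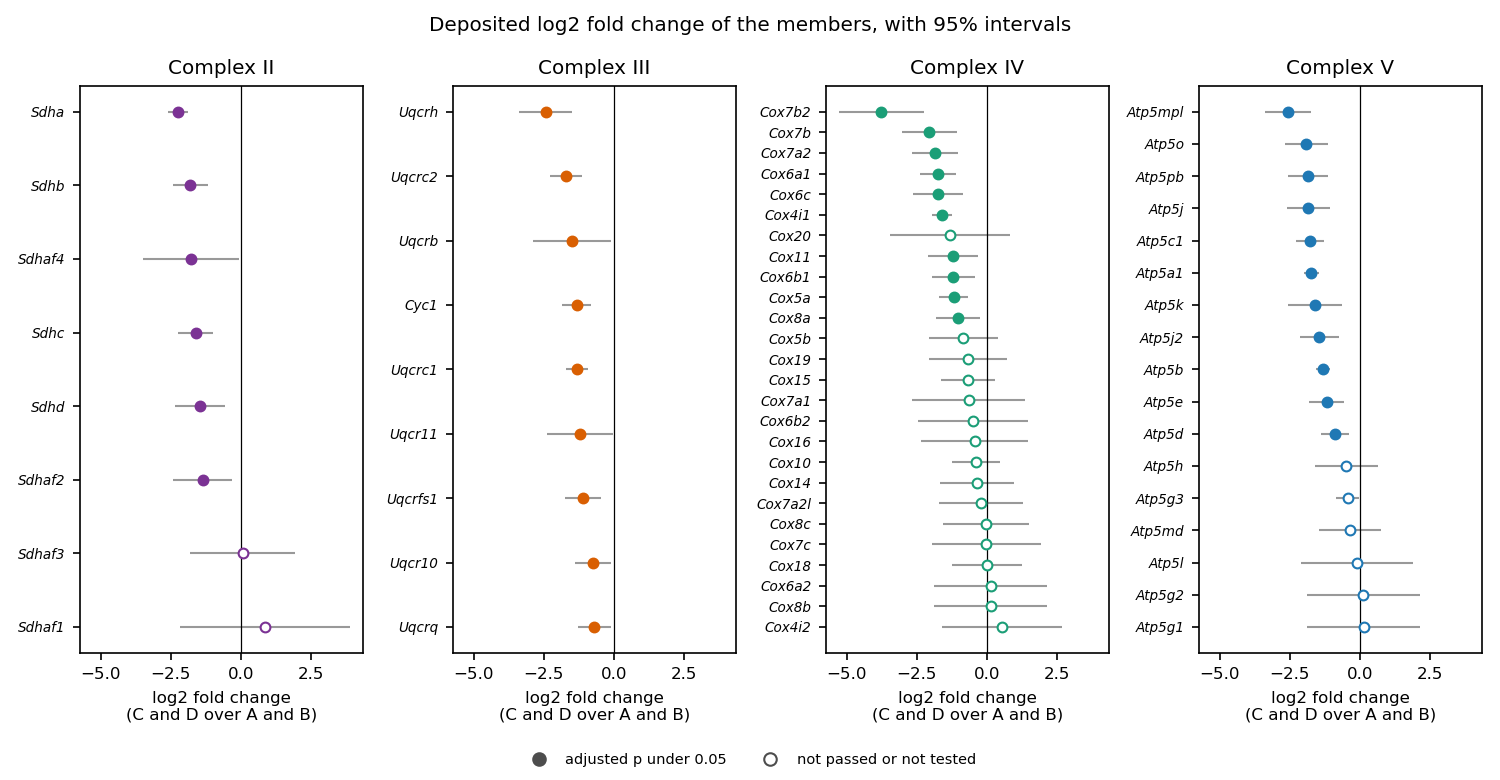
Deposited log2 fold change of each gene with reads (x axis, C and D over A and B) with its 95% interval, in 1 panel for each complex. Filled points passed an adjusted p of 0.05, and all 36 of them lie below 0.

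Genes with high means were lower in C and D more often than genes with low means. Of the 4337 tested genes with the highest means, 61.2% were lower and 11.7% were higher. They hold 32 of the members, of which 31 were lower in the authors' deposited table. The exception was Atp5g3. The median log2 fold change of the 32 was -1.60 in the authors' deposited table, against -1.05 for all 4337 genes. On the RPM scale both C and D lay below both A and B for 37 of the 54 tested members, against 22.3% of all tested genes and 60.0% of those with the highest means. All tested genes were also split into 10 bins of equal size by mean. The median log2 fold change in the authors' deposited table was 1.88 in bin 3, 0.57 in bin 6, -0.91 in bin 9 and -1.47 in bin 10, the highest. Of the 54 tested members, 45 lay below the median of their own bin, where 50% of genes lie by definition, with a median difference of -0.91. The members of complex III were nearest to genes of like means, with 5 of 9 below and a median difference of -0.20. All 8 of complex II and all 8 tested complex IV assembly factors lay below, with median differences of -0.85 and -1.12. To lie below a bin is not to be lower in C and D, since bins of low means have medians above 0. Sdhaf1, Sdhaf3 and Cox18 had log2 fold changes of 0.86, 0.05 and 0.0005, and lay below bin medians of 0.99, 0.38 and 0.94. This comparison by level was chosen after the values were seen, and is a description.

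**Figure D2:**
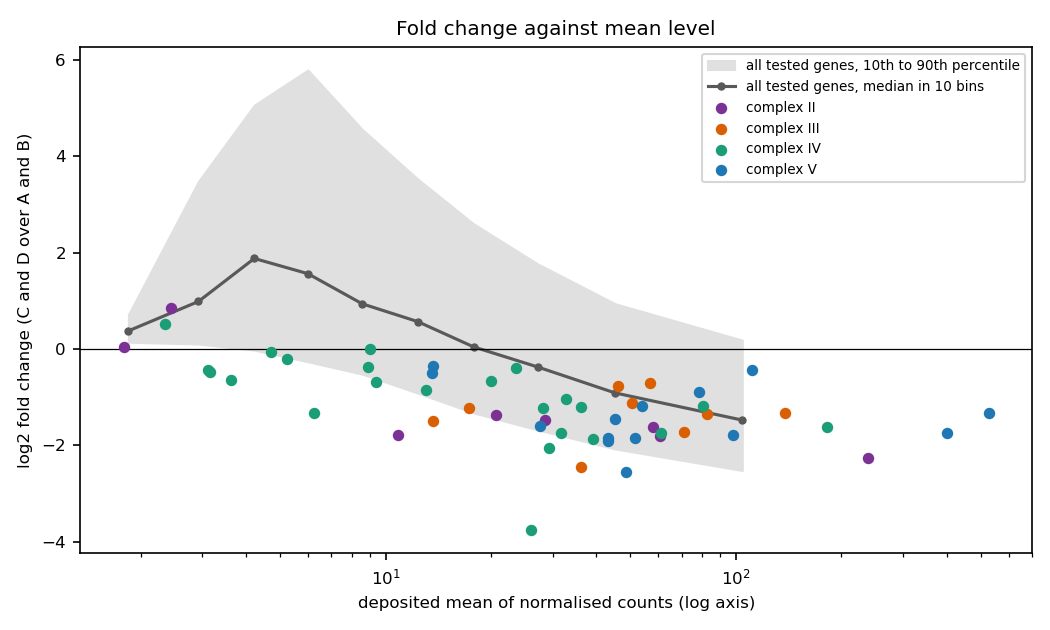
Deposited log2 fold change (y axis, C and D over A and B) against the mean over the 4 libraries (x axis, log scale), with the members as points coloured by complex and the median and the range from percentile 10 to 90 of all tested genes in 10 bins of the mean. The median of all genes is -1.47 in the highest bin, and 45 of the 54 tested members lie below the median of their bin.

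As a share of each library, the 62 genes took 0.457% and 0.415% of reads in C and D (1293 and 918 reads), against 0.836% and 0.852% in A and B (7868 and 6724 reads). The Wilson 95% intervals ran from 0.433% to 0.483% in C and from 0.389% to 0.442% in D, against 0.818% to 0.855% in A and 0.832% to 0.872% in B, so the sides did not overlap. With 2 libraries against 2, an exact two-sided permutation test cannot go below p = 0.333. The mean share was 1.94-fold lower in C and D. The 62 genes held 3.44 and 3.63 reads per read of the 8 germ cell markers summed in C and D. In A and B they held 1.98 and 1.99. The direction of this ratio depends on the markers used. Their log2 fold changes in the authors' deposited table ran from -3.61 for Dazl to -0.44 for Sall4 (adjusted p = 0.186, not passed). Sall4 had 417 and 271 RPM in C and D, against 350 and 304 RPM in A and B. The ratio was not planned in advance.

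Complex II had a smaller part of the members' reads in C and D, a measure that does not depend on how the libraries are scaled. Its genes held 10.4% and 10.1% of the members' reads in C and D, against 14.7% and 14.2% in A and B, and the 95% intervals of the sides did not meet (8.89% to 12.2% in C and 8.34% to 12.3% in D, against 13.9% to 15.5% in A and 13.4% to 15.1% in B). That difference rests largely on Sdha. Without Sdha complex II held 5.85% and 5.39% of the remaining reads in C and D, against 6.56% and 6.5% in A and B, and the intervals overlapped (4.67% to 7.31% in C and 4.08% to 7.09% in D, against 6.01% to 7.15% in A and 5.91% to 7.14% in B). Leaving Sdha out was chosen after the values were seen. Complex V held 51.2% and 50.5% in C and D, against 48.4% and 49.4% in A and B. Complex III held 17.8% and 17.1% in C and D, against 15.9% and 15.7% in A and B, and complex IV 20.6% and 22.2% in C and D, against 21.0% and 20.7% in A and B. Relative to the whole library, the mean share of complex II was 2.72-fold lower in C and D, that of complex IV subunits 2.06-fold, that of complex V 1.86-fold, that of complex III 1.75-fold and that of complex IV assembly factors 1.25-fold.

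**Figure D3:**
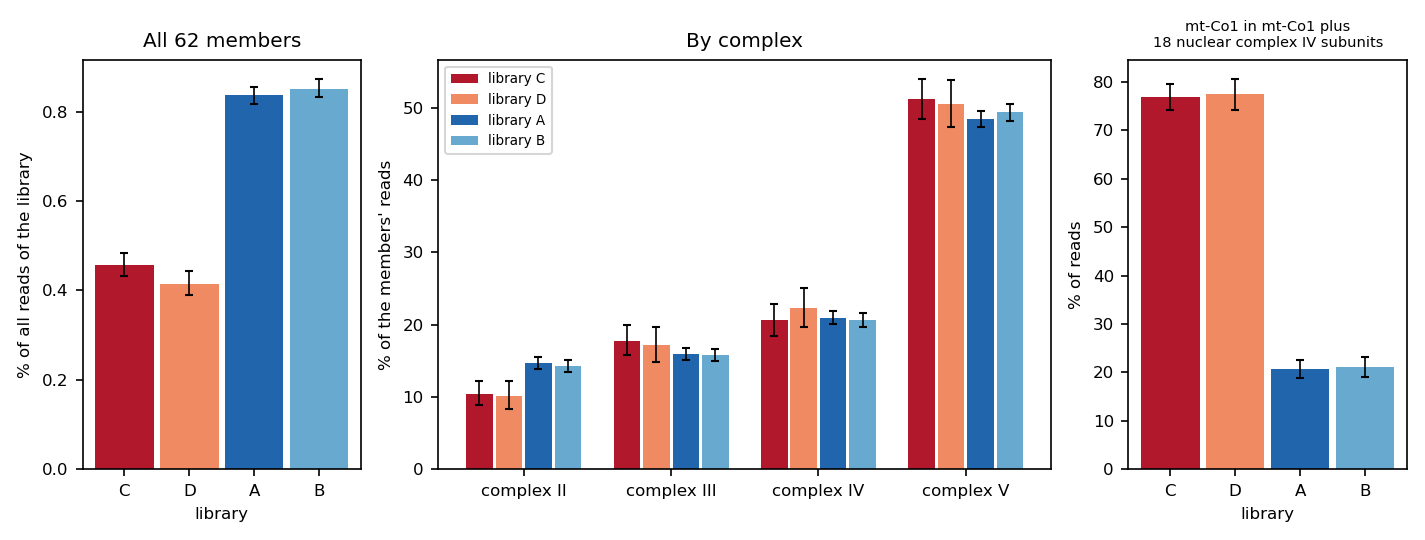
Percent of all reads of a library on the 62 genes (left), percent of the members' reads on each complex (middle) and percent of the reads on mt-Co1 and the 18 nuclear complex IV subunits that lie on mt-Co1 (right), for C and D and then A and B, with Wilson 95% intervals. Complex II holds 10.4% and 10.1% in C and D, against 14.7% and 14.2% in A and B, and mt-Co1 holds 76.9% and 77.6% in C and D, against 20.7% and 21.1% in A and B.

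All 4 subunits of complex II were lower. All 4 are among the 4337 tested genes with the highest means, of which 61.2% were lower, against 18.8% of all tested genes. Sdha, the flavoprotein that oxidises succinate, had 223 and 208 RPM in C and D (63 and 46 reads), against 727 and 704 RPM in A and B (684 and 556 reads). Its log2 fold change was -2.26 (SE 0.18, adjusted p = 1.32e-33) in the authors' deposited table, the smallest adjusted p among the 62 genes. Sdhb, which carries the iron-sulfur clusters, had 74.3 and 63.2 RPM in C and D (21 and 14 reads), against 165 and 182 RPM in A and B (155 and 144 reads), a log2 fold change of -1.81 (SE 0.32, adjusted p = 9.73e-08) in the authors' deposited table. The membrane anchors were lower too. Sdhc had 81.4 and 63.2 RPM in C and D (23 and 14 reads), against 160.5 and 161 RPM in A and B (151 and 127 reads). For Sdhc the authors' deposited table gave a log2 fold change of -1.62 (SE 0.32, adjusted p = 1.78e-06). Sdhd had 42.4 and 31.6 RPM in C and D (12 and 7 reads), against 76.5 and 79.8 RPM in A and B (72 and 63 reads). For Sdhd the authors' deposited table gave -1.47 (SE 0.46, adjusted p = 0.00229). In none of the 4 did the RPM values of the sides overlap.

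The assembly factors of complex II had far fewer reads. Sdhaf2, which helps insert the flavin into Sdha, had 31.8 and 22.6 RPM in C and D (9 and 5 reads), against 54.2 and 58.3 RPM in A and B (51 and 46 reads) and was lower at -1.37 (SE 0.54, adjusted p = 0.0129) in the authors' deposited table. Sdhaf4, which binds the flavinylated Sdha before assembly, had 10.6 and 9.03 RPM in C and D (3 and 2 reads), against 41.4 and 24.1 RPM in A and B (39 and 19 reads) and was lower at -1.79 (SE 0.86, adjusted p = 0.0243) there. That call rests on few reads in C and D, and under limma on the recovered reads its adjusted p was 0.116 without library C and 0.0657 without library D. Sdhaf1 and Sdhaf3, which act on the iron-sulfur subunit, did not pass. Sdhaf1 had 1 and 5 reads in C and D, against 0 and 0 in A and B, with a log2 fold change of 0.86 (SE 1.54, adjusted p = 0.0625) in the authors' deposited table, and Sdhaf3 had 3 and 0 reads in C and D, against 3 and 2 in A and B.

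All 9 tested genes of complex III were lower, with log2 fold changes from -2.44 to -0.70 in the authors' deposited table. Of all tested genes 18.8% were lower, but of the 4337 with the highest means, which hold 7 of the 9, 61.2% were. The hinge protein Uqcrh, which sits by cytochrome c1, had 31.8 and 22.6 RPM in C and D (9 and 5 reads), against 112 and 113 RPM in A and B (105 and 89 reads), the largest change of the complex at -2.44 (SE 0.48, adjusted p = 8.77e-07) in the authors' deposited table. The core proteins Uqcrc1 and Uqcrc2 frame the matrix side of the complex. Uqcrc1 had 184 and 230.3 RPM in C and D (52 and 51 reads), against 369.8 and 346 RPM in A and B (348 and 273 reads). For Uqcrc1 the authors' deposited table gave a log2 fold change of -1.33 (SE 0.20, adjusted p = 5.66e-10). Uqcrc2 had 84.9 and 85.8 RPM in C and D (24 and 19 reads), against 201 and 196 RPM in A and B (189 and 155 reads). For Uqcrc2 the authors' deposited table gave a log2 fold change of -1.72 (SE 0.29, adjusted p = 2.46e-08). The redox subunits Cyc1 (cytochrome c1) and Uqcrfs1 (the Rieske iron-sulfur protein) were lower as well. Cyc1 had 134 and 108 RPM in C and D (38 and 24 reads), against 222 and 213 RPM in A and B (209 and 168 reads). For Cyc1 the authors' deposited table gave a log2 fold change of -1.34 (SE 0.26, adjusted p = 1.06e-06). Uqcrfs1 had 99.0 and 63.2 RPM in C and D (28 and 14 reads), against 129.6 and 125 RPM in A and B (122 and 99 reads). For Uqcrfs1 the authors' deposited table gave a log2 fold change of -1.11 (SE 0.32, adjusted p = 0.00152).

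The small subunits of complex III gave the least certain calls of the complex. Uqcrb had 17.7 and 13.5 RPM in C and D (5 and 3 reads), against 31.9 and 45.6 RPM in A and B (30 and 36 reads). For Uqcrb the authors' deposited table gave a log2 fold change of -1.49 (SE 0.71, adjusted p = 0.0274). Uqcrq had 145 and 76.8 RPM in C and D (41 and 17 reads), against 129 and 132 RPM in A and B (121 and 104 reads). For Uqcrq the authors' deposited table gave a log2 fold change of -0.70 (SE 0.30, adjusted p = 0.0329). Uqcr10 had 99.0 and 76.8 RPM in C and D (28 and 17 reads), against 96.7 and 118 RPM in A and B (91 and 93 reads). For Uqcr10 the authors' deposited table gave a log2 fold change of -0.76 (SE 0.33, adjusted p = 0.034). On the RPM scale the sides overlapped for Uqcrq and Uqcr10, the only 2 of the 36 lower genes with such an overlap. Uqcr11 had 5 and 7 reads in C and D, against 36 and 42 in A and B. For Uqcr11 the authors' deposited table gave a log2 fold change of -1.22 (SE 0.60, adjusted p = 0.0374). All 4 lost the call under at least 1 alternative: with library totals as the scale, limma's adjusted p on the recovered reads was 0.401 for Uqcrq, 0.409 for Uqcr10 and 0.0752 for Uqcr11, and without library C it was 0.109 for Uqcrb. Within the complex, the reads on Uqcrq per read on Uqcrh were 4.56 and 3.40 in C and D, against 1.15 and 1.17 in A and B, a pair chosen after the values were seen.

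Cytochrome c, which shuttles between complexes III and IV, has a somatic gene, Cycs, and a testis gene, Cyct. Cycs is listed at 0 in all 4 libraries, and RefSeq names 3 pseudogenes of it, and how reads that match a copy were counted was not stated in the labels. Cyct, outside the symbol pattern, had 3 and 1 reads in C and D, against 105 and 105 in A and B, with a log2 fold change of -4.27 (SE 0.75, adjusted p = 9.76e-08) in the authors' deposited table. Per read on Cyc1 it held 0.0789 and 0.0417 reads in C and D, against 0.502 and 0.625 in A and B. Hccs, the enzyme that attaches heme to cytochrome c, had 8 and 10 reads in C and D, against 117 and 111 in A and B, and -2.33 (SE 0.43, adjusted p = 1.44e-07) in the authors' deposited table.

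**Figure D4:**
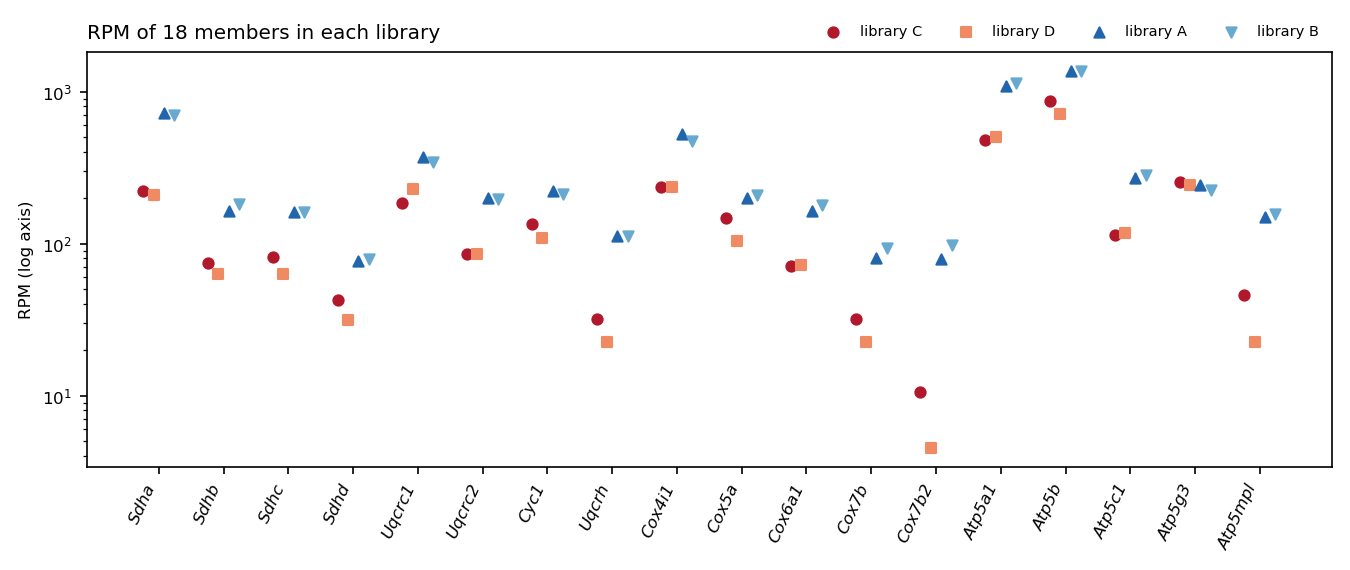
RPM of 18 members (y axis, log scale) in libraries C and D and then A and B, 1 point a library. For every plotted gene but Atp5g3 both C and D lie below both A and B, and for Atp5g3 both lie above. The 18 genes were picked by hand, and Uqcrq and Uqcr10, whose sides overlapped, are not among them. Over the 54 tested members both C and D lay below both A and B for 37. That held for 22.3% of all tested genes and 60.0% of those with the highest means.

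Complex IV gave different counts by role. Of its 15 tested subunits 9 were lower, and of its 8 tested assembly factors 1 was lower. The medians were -1.19 and -0.55 in the authors' deposited table, where 18.8% of all tested genes were lower. Of the 4337 tested genes with the highest means, 61.2% were lower. Those hold 8 of the 15 subunits but only 1 of the 8 assembly factors, so the 2 roles also differ in mean level. The count for the assembly factors depends on the test, since limma on the recovered reads called 3 of them lower with the authors' size factors and 4 with TMM factors. The difference between these counts was not tested, and the assembly factors had fewer reads. Cox4i1, the large regulatory subunit that binds early in assembly, had 237 and 235 RPM in C and D (67 and 52 reads), against 523 and 474 RPM in A and B (492 and 374 reads). For Cox4i1 the authors' deposited table gave a log2 fold change of -1.61 (SE 0.19, adjusted p = 9.24e-17). Cox5a, its partner in the first assembly module, had 149 and 104 RPM in C and D (42 and 23 reads), against 201 and 209 RPM in A and B (189 and 165 reads). For Cox5a the authors' deposited table gave a log2 fold change of -1.19 (SE 0.26, adjusted p = 1.95e-05). Cox6a1 had 70.7 and 72.3 RPM in C and D (20 and 16 reads), against 164 and 179.8 RPM in A and B (154 and 142 reads). For Cox6a1 the authors' deposited table gave a log2 fold change of -1.75 (SE 0.32, adjusted p = 1.95e-07). Cox7a2 had 38.9 and 45.2 RPM in C and D (11 and 10 reads), against 96.7 and 128 RPM in A and B (91 and 101 reads). For Cox7a2 the authors' deposited table gave a log2 fold change of -1.86 (SE 0.42, adjusted p = 2.34e-05). Cox6a1 and Cox7a2 are the ubiquitous forms of subunits that have muscle forms as well. Cox6c had 10 and 8 reads in C and D, against 81 and 74 in A and B, Cox6b1 had 17 and 11 reads, against 86 and 75, and Cox8a had 14 and 13 reads, against 77 and 64. All 3 were lower in the authors' deposited table, at log2 fold changes of -1.75, -1.20 and -1.05, and Cox8a lost the call with library totals as the scale (limma, adjusted p 0.0868). Cox5b, with 6 and 5 reads in C and D, against 32 and 24 in A and B, did not pass at -0.84 (SE 0.62, adjusted p = 0.16) in the authors' deposited table, though limma called it lower under 9 of 13 settings. Nor did Cox7a2l, a factor of supercomplexes, pass, at -0.21 (SE 0.77, adjusted p = 0.745).

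Among the 7 tissue forms of complex IV subunits, the testis form Cox7b2 had the largest change of all 62 genes. It had 10.6 and 4.52 RPM in C and D (3 and 1 reads), against 79.7 and 97.5 RPM in A and B (75 and 77 reads), with a log2 fold change of -3.76 (SE 0.77, adjusted p = 4.65e-06) in the authors' deposited table. The ubiquitous counterpart Cox7b had 31.8 and 22.6 RPM in C and D (9 and 5 reads), against 80.8 and 93.7 RPM in A and B (76 and 74 reads), and -2.05 (SE 0.50, adjusted p = 8.43e-05) there. Per read on Cox7b, Cox7b2 held 0.333 and 0.200 reads in C and D, against 0.987 and 1.04 in A and B, with 3 and 1 Cox7b2 reads behind the values of C and D. The 8 germ cell markers varied widely in the authors' deposited table. Dazl, Tex19.1 and Ddx4 had log2 fold changes of -3.61, -3.26 and -2.97 there. Dnd1, Gfra1, Zbtb16 and Mael had smaller changes, at -1.95, -1.67, -1.58 and -1.44. Sall4 was not called, at -0.44 (adjusted p = 0.186) in the authors' deposited table. The part of these markers in the change of Cox7b2 was not tested. The other testis forms had few reads, with 2 and 0 reads in C and D, against 5 and 10 in A and B, for Cox6b2, and 3 and 3 reads, against 12 and 4, for Cox8c. Neither passed (adjusted p = 0.401 and 0.934 in the authors' deposited table). Limma on the recovered reads called Cox6b2 lower under 6 of 11 settings and Cox8c under 0 of 12. The muscle forms were near the floor as well: Cox7a1 had 1 and 1 reads in C and D, against 10 and 8 in A and B, and was called lower by limma under 6 of 12 settings but not in the authors' deposited table, and Cox6a2 and Cox8b had 2 and 0 reads each in C and D, against 0 and 0 in A and B. Cox4i2, the lung form, had 1 and 4 reads in C and D, against 1 and 1 in A and B, and did not pass at 0.52 (SE 1.09, adjusted p = 0.298) in the authors' deposited table.

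Of the complex IV assembly factors, Cox11, which delivers copper to the catalytic subunit, was the only one lower in the authors' deposited table, and limma called it lower under all 13 settings. It had 35.4 and 49.7 RPM in C and D (10 and 11 reads), against 82.9 and 63.3 RPM in A and B (78 and 50 reads), with -1.22 (SE 0.45, adjusted p = 0.0101) in the authors' deposited table. Cox10 and Cox15 make heme a for the catalytic subunit. Cox10 had 12 and 14 reads in C and D, against 50 and 36 in A and B, at -0.40 (SE 0.43, adjusted p = 0.39) in the authors' deposited table, and Cox15 had 15 and 5 reads in C and D, against 46 and 35 in A and B, at -0.67 (SE 0.49, adjusted p = 0.193). Limma called Cox15 lower under 6 of 13 settings, at -0.85 (adjusted p = 0.0398) with the authors' size factors, and Cox10 under 0. Cox20, a chaperone of the mitochondrially encoded subunit 2, had 2 and 1 reads in C and D, against 21 and 12 in A and B. In the authors' deposited table it stood at -1.32 (SE 1.08, adjusted p = 0.109), nearer to 0 than the plain log2 ratio of its normalised reads, which was -2.25. Limma called Cox20 lower under 10 of 12 settings, at -1.87 (adjusted p = 0.00355) with the authors' size factors. For Sdha, with many reads, the authors' deposited table gave -2.26, against a plain ratio of -2.29. Cox14, Cox16, Cox18 and Cox19 had between 1 and 7 reads in each of C and D, against 4 to 21 reads in each of A and B, and did not pass, with adjusted p from 0.282 to 0.999 in the authors' deposited table, and limma called Cox16 and Cox19 lower under 1 setting each. The copper chaperone Cox17 is listed at 0 in every library.

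The 2 mitochondrially encoded partner subunits with values were higher. mt-Co1, the catalytic subunit, had 717 and 533 reads in C and D, against 363 and 321 in A and B, with a log2 fold change of 2.08 (SE 0.12, adjusted p = 3.30e-66) in the authors' deposited table. Per read on the 18 nuclear complex IV subunits it held 3.33 and 3.46 reads in C and D, against 0.261 and 0.267 in A and B, a ratio free of library scaling. mt-Cytb of complex III stood at 2.69 (SE 0.12, adjusted p = 1.84e-106) in the authors' deposited table, though its reads per library had several solutions. The other 4 mitochondrial partners on the list, mt-Co2, mt-Co3, mt-Atp6 and mt-Atp8, are listed at 0, and the cause was not tested. Fragments of mitochondrial RNA that carry no ribosome cannot be told apart from footprints in this table.

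Complex V held the largest part of the members' reads, and 11 of its 14 tested genes were lower. Of all tested genes 18.8% were lower, but of the 4337 with the highest means, which hold 12 of the 14, 61.2% were. The catalytic F1 head is made of alpha and beta subunits around a gamma shaft. Atp5a1, the alpha subunit, had 481 and 501 RPM in C and D (136 and 111 reads), against 1091 and 1146 RPM in A and B (1027 and 905 reads). For Atp5a1 the authors' deposited table gave a log2 fold change of -1.73 (SE 0.14, adjusted p = 4.07e-33). Atp5b, the beta subunit, had 874 and 714 RPM in C and D (247 and 158 reads), against 1362 and 1370.4 RPM in A and B (1282 and 1082 reads). For Atp5b the authors' deposited table gave a log2 fold change of -1.32 (SE 0.13, adjusted p = 2.27e-23). Atp5c1, the gamma subunit, had 113 and 117 RPM in C and D (32 and 26 reads), against 269.9 and 282 RPM in A and B (254 and 223 reads). For Atp5c1 the authors' deposited table gave a log2 fold change of -1.78 (SE 0.25, adjusted p = 1.56e-11). Atp5e (epsilon) and Atp5d (delta) are smaller subunits of the shaft. Atp5e had 27 and 16 reads in C and D, against 124 and 113 in A and B, at -1.18 (SE 0.32, adjusted p = 0.000517) in the authors' deposited table. Atp5d had 44 and 29 reads in C and D, against 183 and 140 in A and B, at -0.88 (SE 0.25, adjusted p = 0.00137) in the authors' deposited table, and Atp5d lost the call with library totals as the scale (limma, adjusted p = 0.108). Within F1, Atp5d held 1.38 and 1.12 reads per read on Atp5c1 in C and D, against 0.720 and 0.628 in A and B, a pair chosen after the values were seen.

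Of the 4 genes of the peripheral stalk, which keeps the head from turning, 3 were lower. These 3 are among the 4337 tested genes with the highest means, of which 61.2% were lower. Atp5pb (subunit b) had 74.3 and 36.1 RPM in C and D (21 and 8 reads), against 129.6 and 167 RPM in A and B (122 and 132 reads). For Atp5pb the authors' deposited table gave a log2 fold change of -1.85 (SE 0.37, adjusted p = 1.53e-06). Atp5o (OSCP, which joins stalk and head) had 46.0 and 45.2 RPM in C and D (13 and 10 reads), against 120.1 and 130.5 RPM in A and B (113 and 103 reads). For Atp5o the authors' deposited table gave a log2 fold change of -1.91 (SE 0.39, adjusted p = 3.67e-06). Atp5j (F6) had 14 and 10 reads in C and D, against 120 and 95 in A and B. For Atp5j the authors' deposited table gave a log2 fold change of -1.84 (SE 0.39, adjusted p = 6.56e-06). Atp5h (subunit d) had 8 and 6 reads in C and D, against 21 and 30 in A and B, and did not pass at -0.49 (SE 0.57, adjusted p = 0.389) there. Among the small membrane subunits, which help the enzyme form dimers or steady the ring, Atp5mpl had 46.0 and 22.6 RPM in C and D (13 and 5 reads), against 149.8 and 156 RPM in A and B (141 and 123 reads), the largest change of complex V at -2.56 (SE 0.42, adjusted p = 3.33e-09) in the authors' deposited table. Atp5j2 (subunit f) was lower at -1.45 (SE 0.36, adjusted p = 0.000137) and Atp5k (subunit e) at -1.59 (SE 0.49, adjusted p = 0.00161) in the authors' deposited table, with 17 and 14 reads and 11 and 6 reads in C and D, against 112 and 98 reads and 62 and 70 reads in A and B. Atp5md (DAPIT) did not pass at -0.36 (SE 0.56, adjusted p = 0.529) there, and Atp5l (subunit g) had 0 and 0 reads in C and D, against 1 and 1 in A and B. RefSeq names pseudogenes of Atp5l, Atp5k, Atp5c1 and Atp5pb (2, 4, 1 and 1), and how reads shared with a copy were treated was not stated in the labels.

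The subunit of the c ring, which the protons turn, is made from 3 genes whose mature proteins are alike, and nearly all reads lay on Atp5g3. Atp5g3 had 255 and 244 RPM in C and D (72 and 54 reads), against 242 and 224 RPM in A and B (228 and 177 reads). On the RPM scale C and D were thus above A and B. On the authors' scale the log2 fold change was -0.44 (SE 0.20, adjusted p = 0.0563) in the authors' deposited table, which did not pass. Limma on the recovered reads called it lower under 9 of 13 settings, and with library totals as the scale its log2 fold change was 0.10 (adjusted p = 0.578), so no direction is given for it. Atp5g1 had 0 and 2 reads in C and D, and Atp5g2 had 0 and 1, against 0 and 0 in A and B for both. How reads that match more than 1 place were counted was not stated in the labels. The few reads on Atp5g1 and Atp5g2 therefore do not show that these genes are little used. Set against other members, which needs no scaling, Atp5g3 held more of the reads in C and D: per read on Atp5a1 it had 0.529 and 0.486 reads in C and D, against 0.222 and 0.196 in A and B. Sdha held 46.7% and 46.0% of the reads on Sdha and Atp5g3 together in C and D, against 75% and 75.9% in A and B, and the 95% Wilson intervals of the sides did not meet (38.5% to 55.1% in C and 36.6% to 55.7% in D, against 72.1% to 77.7% in A and 72.6% to 78.8% in B). Both pairs were chosen after the values were seen.

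The promoters of these genes are known for sites of NRF1 and of ETS-family factors such as GABP, the main activators of nuclear respiratory genes, and for YY1, CRE, GC-box and CCAAT elements. RefSeq promoter windows (GRCm38.p6, 250 bases before to 50 after the start) were matched by symbol for 48 of the 62 genes and searched on both strands. The NRF1 spelling CGCNTGCGC occurred in 15 of the 48 windows (31.2%), against 7.03% of the windows of all 27025 genes and 19.3% of those of 3515 genes with the highest means. The ETS spelling CCGGAAGT occurred in 8 (16.7%), against 4.31% and 10.9% in the same backgrounds. ACCGGAAG, which shares most of its letters, occurred in 4 (8.33%), against 2.60% and 6.17%. AAGATGGCG (YY1) occurred in 3 (6.25%), against 1.64% and 5.01%, and the looser AANATGGCG, which holds all of its matches, in 5 (10.4%), against 2.76% and 8.73%. TGACGTCA (CRE) occurred in 2 (4.17%), against 2.03% and 4.07%, GGGGCGGGG (GC box) in 7 (14.6%), against 12.9% and 27.8%, and CCAAT in 24 (50.0%), against 41.1% and 43.5%. Sdha, Sdhd, Sdhaf4, Uqcrc1, Uqcr11, Cox6a1, Atp5c1, Atp5o and Atp5k, all lower in the authors' deposited table, hold the NRF1 spelling. Atp5g3, Atp5h and Sdhaf3, which did not pass, hold it as well, and so do the untested Cycs, Atp5g2 and Atp5l. A match is a run of letters and not a shown site.

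Stretches upstream of the start are printed with the matched letters in capitals. They are from Sdha, Uqcrh and Cox7b2, the most changed genes of complexes II, III and IV, and from Cox6a1 and Atp5c1, which hold the NRF1 spelling. All 5 lie on the minus strand of GRCm38.p6 and are read 5′ to 3′ toward the start: Sdha at chr13:74350241-74350363, Cox6a1 at chr5:115349042-115349145, Atp5c1 at chr2:10080433-10080474, Uqcrh at chr4:116075071-116075106 and Cox7b2 at chr5:71548296-71548367.
Sdha: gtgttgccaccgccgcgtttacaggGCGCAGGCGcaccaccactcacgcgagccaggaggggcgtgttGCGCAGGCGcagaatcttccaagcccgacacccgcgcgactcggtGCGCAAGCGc
Cox6a1: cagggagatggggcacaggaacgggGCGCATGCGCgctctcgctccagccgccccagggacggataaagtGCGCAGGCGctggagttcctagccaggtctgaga
Atp5c1: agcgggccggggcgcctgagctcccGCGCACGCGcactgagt
Uqcrh: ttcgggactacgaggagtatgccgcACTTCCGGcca
Cox7b2: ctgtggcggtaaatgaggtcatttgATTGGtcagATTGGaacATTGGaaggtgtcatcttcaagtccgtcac
In Sdha the capitals mark 3 NRF1 matches whose first letters lie 98, 55 and 10 bases before the start, and in Atp5c1 1 at 17 bases. All of these hold the spelling on the other strand. In Cox6a1 the capitals mark 3 NRF1 matches at 162, 161 and 117 bases. The first 2 overlap on opposite strands, and the match at 117 bases is on the other strand. In Uqcrh they mark the ETS spelling on the other strand at 11 bases, and in Cox7b2 3 CCAAT boxes on the other strand at 137, 128 and 120 bases.

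Of 34 tested further subunits and assembly factors of complexes II to V whose symbols fall outside the pattern, 8 were lower and 0 higher, where 18.8% of all tested genes were lower, and the authors' deposited table gave a median of -0.74. They include Atpif1, the inhibitor of ATP synthase reversal, with 30 and 16 reads in C and D, against 207 and 190 in A and B, at -1.84 (SE 0.28, adjusted p = 4.82e-10), and Ndufa4, now counted as a complex IV subunit, with 23 and 22 reads in C and D, against 147 and 123 in A and B, at -1.29 (SE 0.30, adjusted p = 6.21e-05) in the authors' deposited table. Of 13 tested genes of coenzyme Q synthesis and handling, which supply the electron carrier between complexes II and III, 3 were lower and 0 higher, and the authors' deposited table gave a median of -0.34. Both shares are near the 18.8% of all tested genes. Coq7, which adds a hydroxyl group to the ring, had 9 and 11 reads in C and D, against 146 and 140 in A and B, at -2.52 (SE 0.40, adjusted p = 7.66e-10), and Coq3 and Coq10b stood at -2.58 each in the authors' deposited table.

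When the recovered reads were tested with limma under 13 settings of scale, filter and left-out library, 29 of the 36 lower genes were lower in every one and 0 of the 36 lay above 0 in any. The 7 others were Sdhaf4, Uqcrb, Uqcrq, Uqcr10, Uqcr11, Cox8a and Atp5d, of which 5 were lost with library totals as the scale. The share of all genes called lower by limma was 28.8% with the authors' size factors, 18.9% with library totals and 27.3% with A and B summed. It was 27.2%, 24.7% and 26.7% without library B, C or D. With no filter on low counts limma called 54.9% of all genes higher, and 6 of the members.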

How the data were processed

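Ribosome-protected fragments of 26 to 34 nucleotides from 4 samples of mouse testis cells were sequenced. Per the submitters' processing notes, build mm10 and the tools STAR 2.7.5c, Trimmomatic 0.39, edgeR, DESeq2 and StringTie 2.1.7 were used, with no roles given. The authors deposited 1 table: the mean signal over 4 libraries after size-factor scaling, a log2 fold change with its standard error, a p-value and an adjusted p-value for each gene, per the file headers. These deposited values are the main result, and a gene was called at an adjusted p under 0.05. One row without a gene name (0.00475% of summed means) was left out.

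Whole reads in each library were recovered as the combination of 4 step sizes that gives the deposited mean within a relative tolerance of 8e-15. Of 500 means shifted by a relative 1e-09, 0 had a solution. The recovery was tested on simulated data, where 100% of 3856 genes came out exactly. As alternatives, voom and limma 3.58.1 (R 4.3.3) tested 14470 genes with at least 10 recovered reads, under 5 scalings, other filters and with each library left out. Library totals and counting intervals (Wilson, 95%) came from these reads. PCR copies without molecular identifiers are not independent, so intervals cover counting error only.

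The genes and the lists around them were chosen with earlier results of these data known. A rule picked genes for full statistics, in each complex up to 6 with the smallest p and the 2 with the highest mean. From each other list it picked up to 4 genes with the smallest p. Values of members outside this rule are given as well. Sequences are RefSeq's of GRCm38.p6, the assembly behind mm10. No gene lengths were used, so shares and ratios of reads between genes compare reads and not levels per length.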

Additional observations from a re-analysis of the deposited data

How the results depend on the processing

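Limma on the recovered reads kept 36 of the 36 lower calls under 9 of the 13 settings, 31 with library totals as the scale, 35 without library B, and 33 each without library C and without library D. With no filter on low counts 6 genes were called higher, where the authors' deposited table called 0. The median log2 fold change of all members, -1.27 as deposited, was -1.43 with the authors' size factors, -1.58 with TMM factors, -1.38 with upper-quartile factors, -0.87 with library totals, -1.43 with median-of-ratios factors, -1.52 at a minimum of 50 reads, -1.40 with libraries A and B summed, -1.42 without mitochondrial, small RNA and predicted genes, and -1.57, -1.44, -1.53 and -1.49 without library A, B, C and D in turn. The cause of the general shift from the deposited median was not tested. Library totals moved the median of all genes by 0.55 and TMM factors by -0.15 relative to the authors' size factors. With those factors limma called 5912 of 14470 genes higher and 4168 lower, against 7270 and 2742 with library totals. Lower calls among complex IV assembly factors, 1 as deposited, numbered 3 with the authors' size factors, 4 with TMM, 2 with upper-quartile factors, 2 with library totals, 3 with median-of-ratios factors, 2 at a minimum of 50 reads, 3 with no filter, 2 with A and B summed, 3 without mitochondrial, small RNA and predicted genes, and from 1 to 3 with 1 library left out. Of the members picked by rule for full statistics, with Atp5g3 added, 2 changed sign. Both were not called as deposited and changed sign with library totals: Cox10, at 0.072, and Atp5g3, at 0.10. Among the other members not called, Atp5h (0.032), Atp5md (0.136) and Cox7a2l (0.222) were also above 0 with library totals, Cox14 (0.232) without library C, and Cox8c under 8 settings. Without Sdha, an alternative chosen after the values were seen, the log2 ratio of complex II's share of the members' reads was -0.22, against -0.49 with it. The log2 ratio of the members' share was -1.03 without library C and between -1.03 and -0.88 over the 4 libraries left out in turn. Uqcrb was not called without library D (adjusted p = 0.0642), nor Uqcrq (0.131), nor Uqcr10 without library B (0.0783), nor Uqcr11 without library C (0.167). No paired analysis was possible because the recovered libraries carry no replicate numbers. C and D hold fewer reads than A and B, so genes with under 10 reads there have wide intervals.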

Other observations

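Complexes II to V sit in the inner membrane, which is folded into cristae. Of 11 tested genes that shape it 6 were lower and 0 higher, with a median log2 fold change of -1.25 in the authors' deposited table. Of all tested genes 18.8% were lower, but of the 4337 with the highest means, which hold 7 of the 11, 61.2% were. Yme1l1, the protease that trims Opa1 and turns over inner membrane proteins, had 38 and 29 reads in C and D, against 485 and 455 in A and B, at -2.56 (SE 0.22, adjusted p = 3.11e-29) in the authors' deposited table. Micos10, a core subunit of the MICOS complex at cristae junctions, had 7 and 15 reads in C and D, against 130 and 114 in A and B, at -2.13 (SE 0.40, adjusted p = 2.48e-07) in the authors' deposited table. Phb2, a scaffold protein of the inner membrane, had 49 and 23 reads in C and D, against 247 and 196 in A and B, at -1.37 (SE 0.24, adjusted p = 1.38e-07) in the authors' deposited table.

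Regulators of mitochondrial biogenesis went both ways, with 4 of 12 lower and 4 higher and a median of -0.11, all in the authors' deposited table. Of all tested genes 18.8% were lower, and of the 4337 with the highest means, which hold 6 of the 12, 61.2% were. Gabpa, the DNA-binding subunit of GABP, had 19 and 11 reads in C and D, against 199 and 165 in A and B, at -2.31 (SE 0.33, adjusted p = 1.29e-11), and Tfam, which packages mitochondrial DNA, had 8 and 9 reads in C and D, against 99 and 64 in A and B, at -1.87 (SE 0.47, adjusted p = 1.14e-04) in the authors' deposited table. The coactivators Ppargc1b and Ppargc1a were higher, with 10 and 21 reads and 4 and 9 reads in C and D, against 5 and 4 reads and 0 and 0 reads in A and B. Those counts are small, and 26.9% of all tested genes were higher.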
